A study of Mus musculus with 14 samples.

Results

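The comparison described here pooled the tibia libraries of ovariectomized mice given either of 2 phenolic acids and set them against those of ovariectomized mice given phosphate-buffered saline (PBS). The pooled group held 5 libraries, 3 from hippuric acid (OVX-HA) and 2 from 3'(3'hydroxyphenyl) propionic acid (OVX-PPA), and the control group held 3 (OVX-PBS). These 8 of the 14 libraries in the series were chosen by their treatment labels alone. Of the 21761 genes tested, 15524 (71.3%) differed from OVX-PBS in the same direction with both compounds, and the account follows those genes. Because both compounds were set against the same 3 OVX-PBS libraries, a shared direction is a description and carries no test.

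All animals were wild-type female C57Bl/6 mice. OVX-PBS, OVX-HA and OVX-PPA mice had their ovaries removed, and treatment started 2 to 4 days after surgery and lasted 8 weeks. Mice with sham surgery (n = 3) gave a reference level without loss of the ovaries, and a group given zoledronic acid after ovariectomy (OVX-ZA, n = 3) entered the fits, the filter and the scaling but no comparison. No dose, age or route is stated in the sources available for this work. Nor is it stated that every library is a different mouse, so p-values measure the spread between these samples, which may be technical.

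Loss of ovarian estrogen is known to raise bone resorption by osteoclasts and to favour fat cells over bone-forming cells in the marrow, and the series title names bone loss and marrow fat as its subject. Hippuric acid is the glycine conjugate of benzoic acid and carries no hydroxyl group on its ring, whereas the propionic acid compound carries a ring hydroxyl and a short carboxylic acid chain. Both are small acids that circulate after gut microbes break down dietary polyphenols. Fat cell formation is driven by a cascade in which C/EBP factors act early and PPAR gamma acts late.

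The 8 libraries held between 18.7 and 35.4 M estimated counts. Levels are given as CPM, counts scaled to a common library total by TMM, which corrects for library size and composition. The tibia RNA carried the defining markers of bone: Ctsk, the collagenolytic protease of osteoclasts, read 114 to 251 CPM with the phenolic acids and 176 to 186 in OVX-PBS, and Ibsp, a matrix protein of osteoblasts, read 73.2 to 204 and 117 to 183. The summed level of 4 muscle markers was also high, at 24820 to 42010 CPM with the phenolic acids and 25440 to 39290 in OVX-PBS. Transcripts of central nervous tissue were present in most libraries. Mobp, an oligodendrocyte myelin gene, read 507, 1.17 and 486 CPM in OVX-HA, 450 and 418 in OVX-PPA while OVX-PBS libraries read 5.55, 285 and 305. OVX-HA replicate 2 and OVX-PBS replicate 1 therefore stood apart from the other 6 libraries, and results are given with and without them where they turn on them. Markers of lymph node summed to at most 3.66 CPM in these 8 libraries, and those of liver to at most 2.39.

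No gene passed a false discovery rate (FDR) of 0.05 in the pooled comparison with edgeR's quasi-likelihood test, and the smallest adjusted p was 1. At an unadjusted p below 0.05 there were 511 genes (2.35% of those tested), of which 331 (1.52%) were lower and 180 (0.827%) higher with the phenolic acids. With no true difference, a fraction of about 0.05 of genes would be expected at that level in any comparison. The 2.35% found here with edgeR and all libraries is therefore no excess. DESeq2 found 0 genes at the same FDR and 481 at the unadjusted level. Limma voom with quality weights found 0 and 3122, the latter above that fraction. With edgeR, the 2051 genes without OVX-HA replicate 2 and the 1586 without OVX-PBS replicate 3 were also above it. Whether there is an excess thus depends on the method and on the libraries kept. Each compound taken alone gave 0 genes at the FDR, with 317 genes (1.46%) at the unadjusted level for OVX-HA and 403 (1.85%) for OVX-PPA. In 165 genes (0.758%) all 5 phenolic acid libraries lay below all 3 OVX-PBS libraries, and in 173 genes (0.795%) all lay above. The other 6237 genes (28.7%) differed in opposite directions. Both compounds were lower than OVX-PBS in 7737 genes (35.6%) and higher in 7785 (35.8%). The median log2 difference over all genes was 0.00 (49.5% of genes below 0), and the median gene's 95% interval reached 0.44 to either side on the log2 scale. Differences smaller than that were mostly not detectable with these libraries. In bulk RNA, fewer cells of a type and less RNA per cell cannot be told apart.

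The genes named next are the 12 per direction with the smallest p among those that differed the same way with both compounds. None passed the FDR, so they are described as the leading genes and not as changed genes. Those lower with the phenolic acids include regulators of early fat cell differentiation and stress (Cebpb, Jun, Gadd45g), genes of mitochondria and fuel use (Fabp3, Sco2, Alkbh7, Nnt, Idh2) and Twf2, Barx2, Ifi205 and Alas1. Those higher include Stk32b, Zfp618, Cit, Zrsr2, Adcyap1, Hoxd4, Maml3, Slc6a9, Arhgap23, Bsn and Kcnk2, several of which act in neurons. The rule fixes the direction of all 24, which is therefore no result, and it favours genes whose groups do not overlap.

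**Figure D1:**
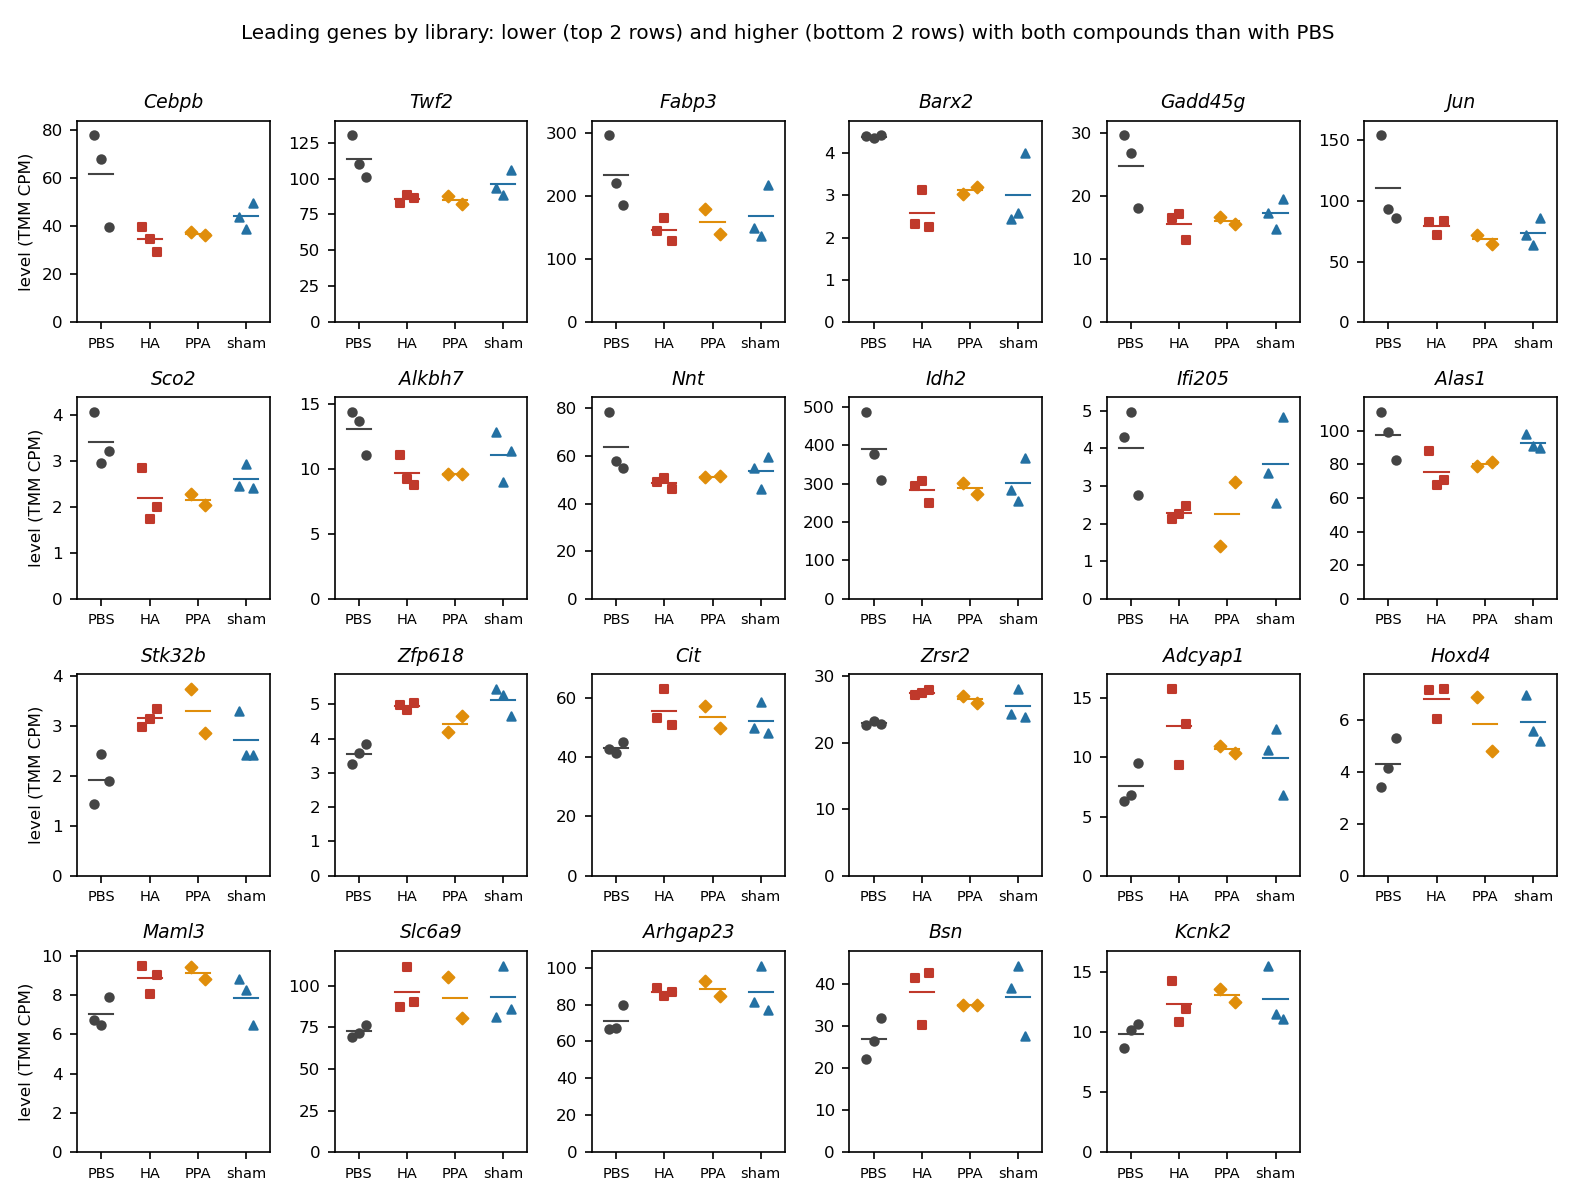
Level of each leading gene in every OVX-PBS, OVX-HA, OVX-PPA and sham library (vertical axis, TMM CPM on a linear scale from 0; points are libraries, bars are group means), with the 12 lower genes in the top rows and 11 of the 12 higher genes in the bottom rows. Cebpb read 39.8 to 77.7 CPM in OVX-PBS and 29.1 to 39.5 with the phenolic acids. The groups did not overlap in 9 of the 12 lower and 8 of the 12 higher genes (all genes: 0.758% and 0.795%). The choice of genes by their p in these same libraries favours such separation.

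Cebpb, which encodes the C/EBP beta factor that acts early in fat cell differentiation and in myeloid cells, had the smallest p of all the leading genes. It read 77.7, 67.7 and 39.8 CPM in OVX-PBS, 39.5, 34.6 and 29.1 in OVX-HA and 37.4 and 36.3 in OVX-PPA. All 5 phenolic acid libraries lay below the lowest OVX-PBS library, though the gap to OVX-PBS replicate 3 was narrow. The group means were 61.7 ± 19.6 CPM (SD, n = 3) and 35.4 ± 3.95 (SD, n = 5). The log2 difference was -0.80 ± 0.17 (SE, 95% interval -1.17 to -0.43, edgeR unadjusted p = 0.00045). Each compound gave nearly the same value, -0.84 for OVX-HA and -0.74 for OVX-PPA. Sham libraries read 43.7, 38.9 and 49.6 CPM, between the means of the other groups. Over the 17 alternatives the pooled difference ran from -0.996 to -0.60 and the lowest adjusted p was 0.109, reached without OVX-PBS replicate 3. Tmem189, on the opposite strand, covers 20.7% of the Cebpb exon bases in the annotation, and whether counting used strand is not given in the sources used here.

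Jun, a partner in the AP-1 dimer, is switched on rapidly by growth or stress signals. It read 154, 93.2 and 85.8 CPM in OVX-PBS, 83.0, 72.1 and 83.7 in OVX-HA and 72.2 and 64.6 in OVX-PPA. The groups did not overlap, and OVX-PBS replicate 1 stood well above all others. The log2 difference was -0.56 ± 0.17 (SE, edgeR unadjusted p = 0.00615), and it was -0.25 without OVX-PBS replicate 1, no longer at the unadjusted level. Gadd45g, a growth arrest gene induced by stress, read 29.6, 26.8 and 18.1 CPM in OVX-PBS, 16.5, 17.2 and 13 in OVX-HA and 16.6 and 15.6 in OVX-PPA. Again the lowest OVX-PBS library lay above every phenolic acid library. Its log2 difference was -0.65 ± 0.19 (SE), with -0.67 for OVX-HA and -0.62 for OVX-PPA, and -0.51 without OVX-PBS replicate 1.

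The promoters of Cebpb, Jun, Fos and Gadd45g are shown because these 4 rapidly induced genes all read lower with both compounds. Each run gives the 250 bases before the RefSeq start of the gene (GRCm38.p6), read 5′ to 3′ along the gene. Capitals mark matches to 4 motifs searched on both strands. They were TGACG, found within the cAMP response element, the CCAAT box, the TATAAA box and the AP-1 site TGACTCA, none of which contains another.
Cebpb, chr2:167688665-167688914, plus strand: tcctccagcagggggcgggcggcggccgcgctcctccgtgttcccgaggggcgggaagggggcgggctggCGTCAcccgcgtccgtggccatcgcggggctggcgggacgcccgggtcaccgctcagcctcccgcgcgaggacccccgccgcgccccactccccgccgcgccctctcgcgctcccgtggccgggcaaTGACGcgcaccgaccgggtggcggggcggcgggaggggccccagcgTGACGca
Jun, chr4:95052223-95052472, minus strand: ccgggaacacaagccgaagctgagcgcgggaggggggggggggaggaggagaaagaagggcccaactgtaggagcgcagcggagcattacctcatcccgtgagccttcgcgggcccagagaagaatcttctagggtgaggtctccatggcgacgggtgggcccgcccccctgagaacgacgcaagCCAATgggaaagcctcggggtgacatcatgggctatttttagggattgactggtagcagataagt
Fos, chr12:85473640-85473889, plus strand: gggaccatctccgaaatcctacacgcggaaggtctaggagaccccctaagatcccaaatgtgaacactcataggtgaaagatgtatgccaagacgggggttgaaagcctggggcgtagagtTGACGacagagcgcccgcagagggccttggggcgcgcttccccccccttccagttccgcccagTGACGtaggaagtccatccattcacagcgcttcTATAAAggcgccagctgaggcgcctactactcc
Gadd45g, chr13:51846425-51846674, plus strand: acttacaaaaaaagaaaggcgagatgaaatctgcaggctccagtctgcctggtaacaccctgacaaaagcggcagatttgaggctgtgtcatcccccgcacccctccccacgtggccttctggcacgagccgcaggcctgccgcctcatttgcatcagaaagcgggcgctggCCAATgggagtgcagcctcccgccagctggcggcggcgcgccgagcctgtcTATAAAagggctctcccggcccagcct
TGACG stood 3 times in the Cebpb window and 2 times in that of Fos, and not in those of Jun and Gadd45g. Across 32851 RefSeq windows of the same length, TGACG was found in 17.8%, CCAAT in 33.8%, TATAAA in 12.4% and TGACTCA in 4.5%. Jun and Gadd45g held 1 CCAAT each, and Fos and Gadd45g 1 TATAAA each. Of 20 genes in a list of immediate early genes, 17 matched a RefSeq promoter, and of these 11 held TGACG, 6 CCAAT, 2 TATAAA and 0 TGACTCA. A listed gene was counted if any of its RefSeq windows held the motif, whereas the shares above count single windows, so these are unlike measures. A match of letters is a description of the window and does not show binding.

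Other rapidly induced genes were lower too. Of 20 members of this list, 19 were lower in the pooled comparison, 15 were lower with both compounds and 6 reached an unadjusted p below 0.05, all lower (all genes: 49.5%, 35.6% and 1.52%). The median log2 difference of the members was -0.23 pooled, -0.22 for OVX-HA and -0.37 for OVX-PPA. Fos, the partner of Jun, read 52.1, 25.2 and 29.3 CPM in OVX-PBS, 29.5, 21.0 and 20.3 in OVX-HA and 25.1 and 23.2 in OVX-PPA. OVX-PBS replicate 1 was clearly high, the groups overlapped, and the difference of -0.57 ± 0.22 (SE) was -0.20 without it. Nr4a1, an orphan nuclear receptor of the same class, read 110, 102 and 75.7 CPM in OVX-PBS, 68.2, 59.0 and 73.7 in OVX-HA and 69.7 and 72.5 in OVX-PPA, without overlap. Its difference was -0.48 ± 0.20 (SE), and -0.37 without OVX-PBS replicate 1. Ier2 (-0.41), Junb (-0.40) and Egr1 (-0.43) had differences of like size and overlapped between the groups. Without OVX-PBS replicate 1 Ier2, Junb and Egr1 were at -0.25, -0.25 and -0.16. The list mean was 5.02 in OVX-PBS replicate 1 on the log2 CPM scale, 4.65 and 4.60 in the other OVX-PBS libraries and 4.37 to 4.69 with the phenolic acids. Sham libraries read 4.21 to 4.46, so the phenolic acid libraries lay within or above the sham range. Without OVX-PBS replicate 1 the median of the list was -0.12, and none of the 6 genes kept an unadjusted p below 0.05. The list was chosen with earlier results of these data known, and it holds Jun, a leading gene.

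Genes that carry fatty acids into mitochondria and oxidize them were lower throughout. Of 28 genes of fatty acid oxidation and the citric acid cycle, 28 were lower with both compounds (all genes: 35.6%), with a median log2 difference of -0.37 pooled, -0.44 for OVX-HA and -0.25 for OVX-PPA. In 4 of them all 5 phenolic acid libraries lay below OVX-PBS (all genes: 0.758%), and 8 reached an unadjusted p below 0.05, all lower (all genes: 1.52%). This list was drawn up after these values had been seen. Fabp3, the fatty acid binding protein of heart and muscle, read 296, 221 and 185 CPM in OVX-PBS, 144, 165 and 129 in OVX-HA and 180 and 139 in OVX-PPA. The groups were separate, by a small margin between OVX-PBS replicate 3 and OVX-PPA replicate 1, and the difference was -0.63 ± 0.18 (SE, edgeR unadjusted p = 0.00338). Idh2, a mitochondrial isocitrate dehydrogenase that makes NADPH, read 486, 378 and 310 CPM in OVX-PBS, 294, 308 and 249 in OVX-HA and 302 and 273 in OVX-PPA. Its difference was -0.46 ± 0.15 (SE), and the groups did not overlap, although the closest libraries read 310 and 308 CPM. Without OVX-PBS replicate 1 it was -0.27, no longer at the unadjusted level.

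Nnt, the transhydrogenase of the inner mitochondrial membrane, read 78.4, 57.7 and 55.1 CPM in OVX-PBS, 49.1, 50.7 and 46.1 in OVX-HA and 51.1 and 51.5 in OVX-PPA. OVX-PBS replicate 1 was the high library here as well, and the difference of -0.36 ± 0.12 (SE) was -0.18 without it. The other 5 list members at an unadjusted p below 0.05, named after their values were seen, were Bdh1 of ketone metabolism (-0.28), the carnitine palmitoyltransferases Cpt1b (-0.52) and Cpt2 (-0.46) and the trifunctional protein subunits Hadha (-0.37) and Hadhb (-0.54). Without OVX-PBS replicate 1 Bdh1 was at -0.14, Cpt1b at -0.29, Cpt2 at -0.24, Hadha at -0.21 and Hadhb at -0.34, none of them at the unadjusted level. Cpt1b shares 81.4% of its annotated exon bases with the read-through gene Gm44502 and is uncertain. Hadhb read 289, 240 and 162 CPM in OVX-PBS, 199, 137 and 122 in OVX-HA and 188 and 150 in OVX-PPA, so OVX-PBS replicate 3 fell among the phenolic acid libraries. Pdk4, the kinase that turns cells from glucose to fatty acids, read 605, 367 and 401 CPM in OVX-PBS, 325, 179 and 180 in OVX-HA and 339 and 329 in OVX-PPA, without overlap. Its difference was -1.01 for OVX-HA and -0.45 for OVX-PPA (pooled -0.76 ± 0.31, SE). Without OVX-PBS replicate 1 the pooled difference of Pdk4 was -0.51, no longer at the unadjusted level.

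Respiratory chain genes followed the same direction. Among 82 nuclear-encoded subunits 80 were lower pooled and 79 with both compounds, with a median of -0.27. An unadjusted p below 0.05 was reached by 17, all lower (all genes: 1.52%). This list and those of mitochondrial ribosomal proteins and the mitochondrial genome were drawn up after these values had been seen. The mean of the subunits was 7.245, 7.191 and 6.717 in OVX-PBS on the log2 CPM scale. It was 6.869, 6.719 and 6.764 in OVX-HA and 6.969 and 6.682 in OVX-PPA. Ndufc1 of complex I read 77.9, 74.4 and 46.7 CPM in OVX-PBS, 52.2, 46.7 and 45.9 in OVX-HA and 51.2 and 45.2 in OVX-PPA, and its difference was -0.46 for both compounds. OVX-PBS replicates 1 and 2 stood high, while replicate 3 read within the phenolic acid range. Ndufa13 of complex I (-0.35) and the ATP synthase subunit Atp5d (-0.37) also overlapped. The copper chaperone Sco2, needed to assemble cytochrome oxidase, read 4.06, 2.95 and 3.22 CPM in OVX-PBS and 1.73 to 2.85 with the phenolic acids (-0.64 ± 0.20, SE), without overlap, but 68.3% of its annotated exon bases are shared with Tymp. Of 78 mitochondrial ribosomal proteins 76 were lower (median -0.17), with Mrpl15 at -0.32 and Mrps30 at -0.27, and at -0.19 and -0.14 without OVX-PBS replicate 1. Of the 13 genes encoded in the mitochondrial genome 12 were lower, with a median of -0.18 and none at an unadjusted p below 0.05. Without OVX-PBS replicate 1 the medians were -0.16 for the nuclear-encoded subunits, -0.09 for the ribosomal proteins, -0.21 for fatty acid oxidation and 0.04 for the mitochondrial genome.

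Muscle genes, rich in mitochondria, were lower with both compounds, while brown fat genes were not uniformly so. All 16 muscle genes were lower with both compounds, with a median of -0.23 that was -0.39 without OVX-PBS replicate 3 and -0.09 without both libraries that lacked nervous tissue transcripts. The muscle list mean was 11.38 in the lowest and 11.94 in the middle OVX-PBS library on the log2 CPM scale, against 11.24 to 11.93 with the phenolic acids. Mb, the myoglobin gene, read 2670, 1930 and 1500 CPM in OVX-PBS, 1410, 1210 and 1480 in OVX-HA and 1540 and 1350 in OVX-PPA (-0.54 ± 0.20, SE). The difference of Mb was -0.295 without OVX-PBS replicate 1, no longer at the unadjusted level, and 27.6% of its annotated exon bases lie under an antisense gene. Of 10 brown fat genes 9 were lower pooled but 5 with both compounds. Their median was -0.50 for OVX-HA and -0.04 for OVX-PPA, a difference between compounds that was not tested for the list. The pooled median of -0.37 was -0.05 without both libraries that lacked nervous tissue transcripts. Ucp1, the uncoupling protein of brown fat, ranged from 69.3 to 182 CPM in OVX-PBS and from 12.5 to 177 with the phenolic acids. The part of muscle and brown fat content in the lower mitochondrial transcripts was not tested.

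**Figure D2:**
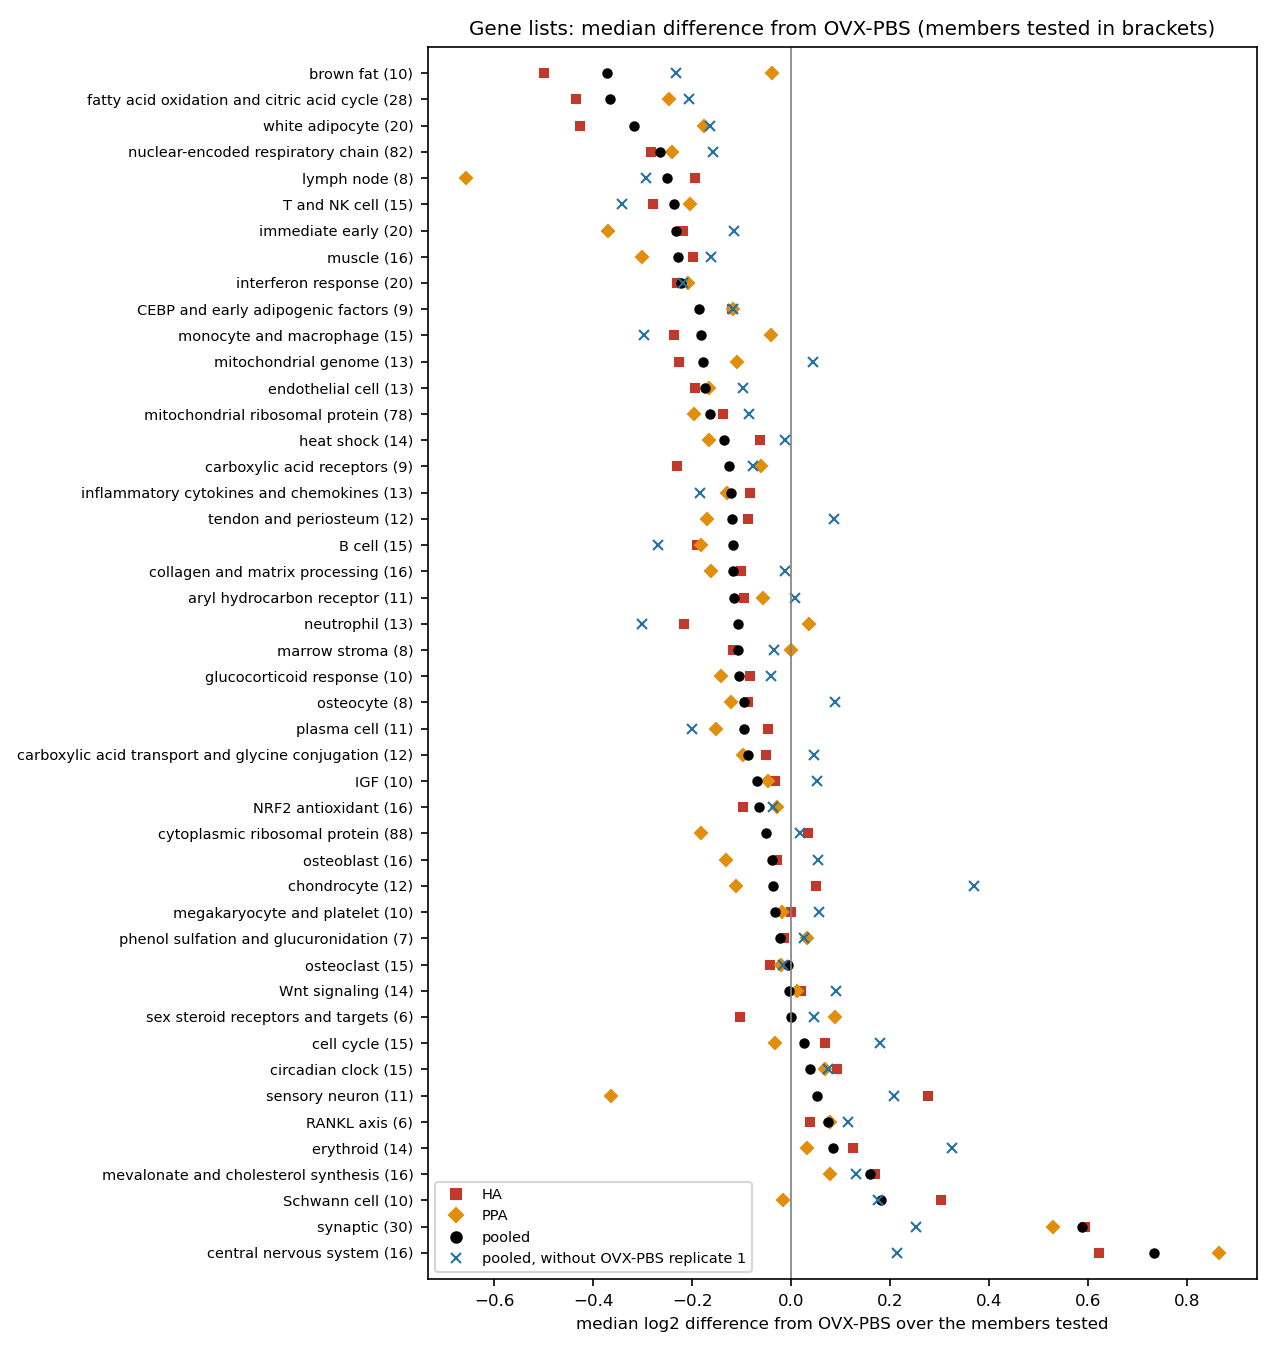
Median log2 difference from OVX-PBS over the tested members of each gene list (horizontal axis; a line per list with its number of members), for OVX-HA, OVX-PPA, both pooled, and pooled without OVX-PBS replicate 1. Brown fat (-0.37, with -0.50 for OVX-HA and -0.04 for OVX-PPA), fatty acid oxidation (-0.37), white adipocyte (-0.32) and respiratory chain (-0.27) lie to the left. Synaptic (0.59) and central nervous system genes (0.73) lie to the right. All of these pooled medians lie closer to 0 without OVX-PBS replicate 1. The fatty acid oxidation, respiratory chain and synaptic lists were drawn up after these values had been seen.

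White fat cell genes bear on the marrow fat named in the title. Of 20 genes 19 were lower pooled and 18 with both compounds (all genes: 49.5% and 35.6%), with a median of -0.32 pooled, -0.43 for OVX-HA and -0.18 for OVX-PPA. Lpl, the lipase that releases fatty acids for uptake, was the only member at an unadjusted p below 0.05. It read 1590, 1170 and 895 CPM in OVX-PBS, 970, 720 and 824 in OVX-HA and 952 and 900 in OVX-PPA, a difference of -0.48 ± 0.21 (SE) that was -0.24 without OVX-PBS replicate 1. OVX-PBS replicate 3 lay below 3 of the phenolic acid libraries. Adipoq, the adiponectin gene, read 121, 133 and 80.4 CPM in OVX-PBS, 119, 80.9 and 74.4 in OVX-HA and 119 and 95.8 in OVX-PPA. Its groups overlapped widely (-0.19 ± 0.25, SE, edgeR unadjusted p = 0.457). Pparg, the master regulator of fat cells, gave -0.49 for OVX-HA and 0.07 for OVX-PPA and so did not differ the same way. Cd36 (-0.36), Slc2a4 (-0.36), Fabp4 (-0.39) and Plin1 (-0.23) also overlapped. The list median was -0.16 without OVX-PBS replicate 1 and -0.11 without both libraries that lacked nervous tissue transcripts. Among 9 C/EBP and early adipogenic factors, Cebpb alone reached the unadjusted level. Klf15 was at -0.25 and Cebpa at -0.25, and Cebpa ranged from 53.6 to 82.9 CPM in OVX-PBS and from 38.0 to 80.6 with the phenolic acids.

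Bone resorption and formation genes mostly lay on both sides of OVX-PBS. Of 15 osteoclast genes 11 were lower pooled, but only 3 with both compounds, and none reached an unadjusted p below 0.05; the median was -0.01. Ctsk read 186, 176 and 180 CPM in OVX-PBS, 131, 251 and 114 in OVX-HA and 170 and 186 in OVX-PPA. The phenolic acid libraries lay on both sides of the tight OVX-PBS group, with OVX-HA replicate 2 highest. Its difference was -0.08, with a 95% interval of -0.62 to 0.45. Acp5, the tartrate-resistant phosphatase of osteoclasts, gave the same picture (-0.08, interval -0.61 to 0.46). Dcstamp, needed for osteoclast fusion, had the smallest p of the list, at -0.37 with overlap.

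In the RANKL axis, which controls osteoclast formation, Tnfsf11 (the ligand RANKL) read 1.55 to 2.12 CPM in OVX-PBS and 1.12 to 3.13 with the phenolic acids, and Tnfrsf11b (its decoy receptor) 6.15 to 7.03 and 5.44 to 12.4. Their differences were 0.10 and 0.20, both well within their spread. Csf1, the growth factor of osteoclast precursors, read 36.6, 41.5 and 41.9 CPM in OVX-PBS, 43.8, 42.5 and 43.7 in OVX-HA and 43.7 and 48.9 in OVX-PPA, higher in 5 of 5 libraries but by only 0.15 ± 0.08 (SE). Of 16 osteoblast genes 12 were lower pooled and 8 with both compounds, with a median of -0.04. Bglap2, an osteocalcin gene with near-identical copies whose counts may be split, read 98.0 to 119 CPM in OVX-PBS and 57.9 to 181 with the phenolic acids. Col1a1, the main bone collagen, read 2490 to 3510 and 2040 to 4970 CPM (-0.03, interval -0.61 to 0.56). Sost, the osteocyte inhibitor of Wnt signaling, read 4.60 to 8.75 and 4.06 to 14.5 CPM. In each of the last 3 genes OVX-HA replicate 2 was the highest of the 8 libraries, and leaving it out lowered the osteoblast median to -0.27.

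Interferon-induced genes were lower in 19 of 20 cases pooled and 18 with both compounds (all genes: 49.5% and 35.6%). Their median was -0.22, and between -0.38 and -0.15 under the 17 alternatives. The list mean was 3.865, 3.836 and 3.716 in OVX-PBS on the log2 CPM scale. It was 3.347, 3.971 and 3.335 in OVX-HA and 3.369 and 3.744 in OVX-PPA. OVX-HA replicate 2 thus lay above every OVX-PBS library, and OVX-PPA replicate 2 lay among them. Only Ifit3 reached the unadjusted level, at 13.8, 17.0 and 15.2 CPM in OVX-PBS, 14.1, 11.8 and 11.8 in OVX-HA and 12.2 and 13.7 in OVX-PPA (-0.27 ± 0.11, SE). Ifit1 was at -0.39 with overlap. Ifi205, a DNA-sensing interferon-induced gene among the leading 12, read 4.29, 4.96 and 2.77 CPM in OVX-PBS, 2.13, 2.25 and 2.46 in OVX-HA and 1.41 and 3.11 in OVX-PPA. A single OVX-PPA library exceeded the lowest OVX-PBS library, and the difference was -0.80 ± 0.26 (SE). Endothelial genes were lower in 13 of 13 cases pooled and 12 with both compounds (median -0.18), and 3 of them, Pecam1 (-0.20), Kdr (-0.31) and Eng (-0.24), did not overlap between the groups (all genes: 0.758%). The list median was -0.10 without OVX-PBS replicate 1. Pecam1 read 89.7, 81.1 and 73.3 CPM in OVX-PBS, 71.9, 70.2 and 67.9 in OVX-HA and 72.4 and 72.5 in OVX-PPA. None of the 13 reached an unadjusted p below 0.05. Fibrillar and type VI collagens with the enzymes that process collagen were lower in 16 of 16 cases pooled, 12 with both compounds, by a median of -0.12 that was -0.01 without OVX-PBS replicate 1.

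The remaining leading lower genes were of mixed function. Twf2, an actin capping protein, read 130, 110 and 101 CPM in OVX-PBS, 83.2, 88.6 and 86.3 in OVX-HA and 87.5 and 82.5 in OVX-PPA. Its groups were clearly separate (-0.41 ± 0.11, SE), with -0.40 for OVX-HA and -0.42 for OVX-PPA. Barx2, a homeobox factor of muscle progenitors, was nearly constant within OVX-PBS, at 4.40, 4.35 and 4.42 CPM against 2.33, 3.13 and 2.26 in OVX-HA and 3.04 and 3.21 in OVX-PPA. All 5 phenolic acid libraries lay clearly below, and the difference was -0.65 whether or not OVX-PBS replicate 1 was kept. Alas1, the first enzyme of haem synthesis outside red cells, read 82.3 to 111 CPM in OVX-PBS and 67.9 to 88.1 with the phenolic acids (-0.33 ± 0.11, SE). Alkbh7, a mitochondrial AlkB homologue, read 11.1 to 14.4 and 8.82 to 11.1 CPM (-0.43 ± 0.13, SE). Both overlapped by a single library.

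Among the leading higher genes, Zrsr2, a factor of the minor spliceosome, varied little within groups. It read 22.7, 23.2 and 22.8 CPM in OVX-PBS, 27.2, 27.5 and 27.9 in OVX-HA and 27.1 and 26.0 in OVX-PPA. The difference was small, 0.24 ± 0.08 (SE), but larger than the spread within either group. Stk32b, a serine/threonine kinase, read 1.43, 2.44 and 1.89 CPM in OVX-PBS, 2.98, 3.13 and 3.34 in OVX-HA and 3.74 and 2.85 in OVX-PPA. Its log2 difference was the largest of the 12, 0.72 ± 0.22 (SE, edgeR unadjusted p = 0.00553), at a low level. Zfp618, a zinc finger gene, read 3.26, 3.59 and 3.84 CPM in OVX-PBS, 4.98, 4.83 and 5.05 in OVX-HA and 4.18 and 4.67 in OVX-PPA (0.41 ± 0.13, SE). Cit, the citron kinase of cell division, read 41.6 to 45.3 CPM in OVX-PBS and 49.8 to 63.1 with the phenolic acids (0.34 ± 0.11, SE). Maml3, a Notch coactivator, and the GTPase-activating protein Arhgap23 also did not overlap, at 0.35 and 0.29. Hoxd4, a body position gene, was at 0.57 with overlap, and it shares 39.1% of its annotated exon bases with Gm28230.

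Several of the higher genes belong to nerve cells. Adcyap1, which encodes the neuropeptide PACAP, read 6.35, 6.79 and 9.54 CPM in OVX-PBS, 15.8, 9.34 and 12.8 in OVX-HA and 11 and 10.4 in OVX-PPA (0.65 ± 0.22, SE). Bsn, a presynaptic scaffold, was at 0.45 ± 0.17 (SE). In Adcyap1 and Bsn, OVX-HA replicate 2 was the lowest phenolic acid library and overlapped OVX-PBS. Slc6a9, a glycine transporter of glia and red cell precursors, read 69.4 to 76.4 CPM in OVX-PBS and 80.5 to 111 with the phenolic acids, with OVX-HA replicate 2 highest. Kcnk2, a potassium channel, was at 0.35 ± 0.13 (SE) without overlap. Of 30 synaptic genes, listed after their values had been seen, 28 were higher pooled and 27 with both compounds (median 0.59). All 16 central nervous system genes were higher with both (median 0.73). Beside this stand the list means of the central nervous system genes on the log2 CPM scale, 2.53, 6.10 and 6.20 in OVX-PBS, 6.79, 2.02 and 6.77 in OVX-HA and 6.60 and 6.37 in OVX-PPA. Without both low libraries the synaptic median was 0.43 and the nervous system median 0.50. With the nervous system score as a covariate the synaptic median was 0.28. That score is the mean of the central nervous system genes themselves, so their own median in that fit (-0.10) carries no information. Of the 12 higher genes 10 had their lowest value in OVX-PBS replicate 1.

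**Figure D3:**
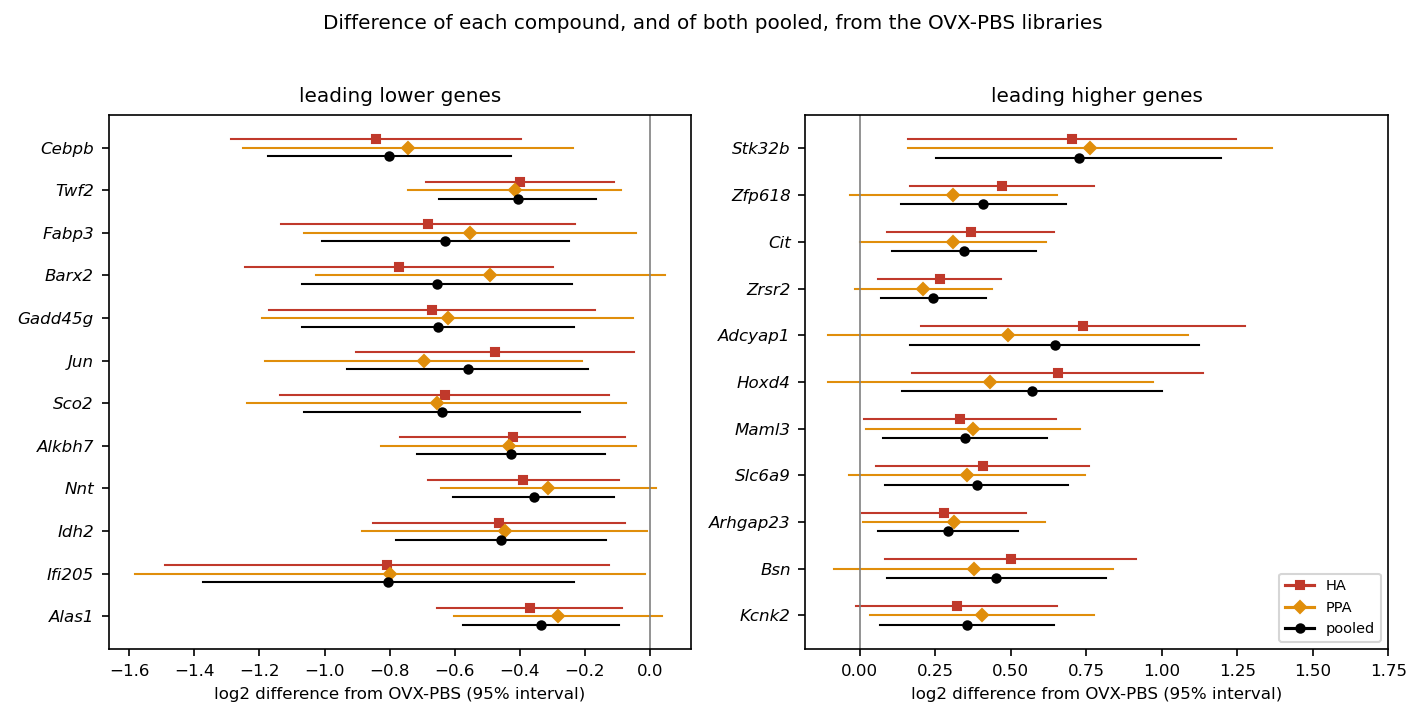
Log2 difference from OVX-PBS with its 95% interval (horizontal axis) for OVX-HA, OVX-PPA and both pooled, in the 12 leading lower genes (left) and 11 of the 12 leading higher genes (right). The values of the compounds lie close to each other, as in Cebpb (-0.84 and -0.74). Over all 24 leading genes the interval excludes 0 in 12 lower and 11 higher genes for OVX-HA and in 9 and 6 for OVX-PPA. Over all genes, 1.46% for OVX-HA and 1.85% for OVX-PPA had an unadjusted p below 0.05 in edgeR. The leading genes were chosen for a small pooled p and a shared direction in these same libraries, which favours both outcomes.

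The structural difference between the compounds was addressed by testing OVX-HA against OVX-PPA, the 1 pair available, at the same length of treatment and at unstated doses. With edgeR 0 genes passed the FDR and 254 (1.17%) had an unadjusted p below 0.05; DESeq2 gave 0 and 267 and limma voom 0 and 1372. In the 24 leading genes the difference OVX-HA minus OVX-PPA ran from -0.28 (Barx2) to 0.25 (Adcyap1). For Cebpb it was -0.10 with a 95% interval of -0.59 to 0.40, for Fabp3 -0.13 (-0.63 to 0.37) and for Stk32b -0.06 (-0.66 to 0.54). No interval among the 24 excluded 0, and the widest bounds were -0.81 (Barx2) and 0.85 (Adcyap1). The median gene's interval reached 0.57 to either side, so differences of that size between the compounds cannot be told from none. The choice of genes that moved the same way favours small differences here.

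The genes with the smallest p between the compounds are given for contrast. Dio2, the deiodinase that activates thyroid hormone, read 12.9, 11.2 and 11 CPM in OVX-HA and 17.5 and 21.7 in OVX-PPA, with 18.6, 16.7 and 14.8 in OVX-PBS. The compounds did not overlap (-0.74, interval -1.26 to -0.22, adjusted p = 1 in edgeR). Bc1, a small neuronal noncoding RNA, read 43.6, 7.08 and 102 CPM in OVX-HA and 504 and 136 in OVX-PPA (-2.65), while the OVX-PBS libraries read 10.7, 34.3 and 36.8. Nr4a3, a nuclear receptor related to Nr4a1, went the other way, with 4.02, 6.97 and 5.61 CPM in OVX-HA and 1.95 and 3.14 in OVX-PPA (1.10, interval 0.29 to 1.92). Tle1, a corepressor, read 25.3, 22.7 and 24.2 CPM in OVX-HA and 18.1 and 19.6 in OVX-PPA (0.35). Banp (0.49) and Tppp3 (0.36) were likewise higher in OVX-HA, and so was Pagr1a (0.38), which shares 98.7% of its annotated exon bases with Gm42742. Itga8 (-1.15) was high in OVX-PPA replicate 1 (17.7 CPM) and not in replicate 2 (5.22), and Gbp10 (-1.24) was high in replicate 2 (6.39 CPM) and not in replicate 1 (1.63). Without the high library these values were -0.02 and 0.07. Taf9 was at -0.78 and shares 73.8% of its exon bases with Ak6. Hspb1, a small heat shock protein, was lower in OVX-PPA (42.5 and 40.7 CPM) than in OVX-HA (58.1, 56.8 and 52.4), with OVX-PBS at 77.2, 71.4 and 50.5; the difference between the compounds was 0.42 (interval 0.02 to 0.82).

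Genes that could meet the compounds directly were mostly at low levels and within their spread. Of 9 tested receptors for carboxylic acids 7 were lower pooled and 4 with both compounds, with a median of -0.13 that was 0.02 without OVX-PBS replicate 3 and -0.26 without OVX-HA replicate 2. Hcar2, a receptor of small carboxylic acids, read 2.92, 2.68 and 2.59 CPM in OVX-PBS, 3.23, 2.08 and 1.41 in OVX-HA and 3.42 and 2.40 in OVX-PPA (-0.12, interval -0.81 to 0.56). Ffar4, a receptor of long-chain fatty acids, was at -0.29 and Gpr84, a receptor of medium-chain fatty acids, at -0.36. Glyat, which joins glycine to benzoic acid to make hippuric acid, stayed at or below 0.876 CPM in all 8 libraries. The aryl hydrocarbon receptor pathway had a median of -0.115, and 0.00753 without OVX-PBS replicate 1. Of its 11 genes only 6 were lower with both compounds, while 10 were lower pooled. The exception was Ugt1a6b, a glucuronosyltransferase, at 0.686, 0.579 and 0.906 CPM in OVX-PBS, 1.26, 1.40 and 1.21 in OVX-HA and 2.55 and 2.07 in OVX-PPA. It was higher in 5 of 5 libraries (1.20 ± 0.42, SE). At least 55.0% of the annotated exon bases of Ugt1a6b are shared with each of several other Ugt1a genes, Ugt1a6a among them, so its counts are uncertain. Osgin1, a target of the antioxidant regulator NRF2, was lower (-0.24 for OVX-HA and -0.56 for OVX-PPA), while the 16 NRF2 targets had a median of -0.06, and -0.04 without OVX-PBS replicate 1. Genes of cholesterol synthesis were higher in 13 of 16 cases pooled and 11 with both compounds (median 0.16, and 0.08 without OVX-PBS replicate 2 and 0.24 without replicate 3), among them Mvk (0.20) and Dhcr7 (0.26), with none of the 16 at an unadjusted p below 0.05.

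The sham libraries placed these levels against mice with ovaries. In 12 of the 12 lower and 12 of the 12 higher leading genes the sham mean lay on the same side of the OVX-PBS mean as the phenolic acid mean, and in 7 and 11 of them the phenolic acid mean lay within the sham range. Gadd45g, for example, had a mean of 24.8 ± 6.02 CPM in OVX-PBS (SD, n = 3), 15.8 ± 1.63 with the phenolic acids (SD, n = 5) and 17.2 ± 2.40 in sham (SD, n = 3). Since the genes were chosen for a difference from the same OVX-PBS libraries, this count is a description. Tested directly against sham, 0 genes passed the FDR in edgeR (smallest adjusted p 0.648) and 476 (2.19%) had an unadjusted p below 0.05, while DESeq2 gave 6 and 530 and limma voom 0 and 552. Among the leading genes Ifi205 (-0.64 against sham) and Alas1 (-0.27) were in that group.

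The number of genes at the unadjusted level depended on single libraries. Without OVX-PBS replicate 1 there were 57 lower and 98 higher genes at an unadjusted p below 0.05, against 331 and 180 with all libraries. Without OVX-HA replicate 2 there were 801 and 1250, without OVX-PBS replicate 3 818 and 768, and without OVX-PBS replicate 2 187 and 104. None of these fits gave a gene at an FDR of 0.05. Of the 12 leading lower genes 10 had their highest value in OVX-PBS replicate 1, and 8 of the 12 kept an unadjusted p below 0.05 without it, as did 5 of the 12 higher genes. Cebpb, Twf2, Fabp3, Barx2 and Gadd45g among the lower genes, and Stk32b, Zfp618, Cit and Zrsr2 among the higher, had an unadjusted p below 0.05 in each of the 17 alternatives. The leading genes were chosen for a small p in these same libraries, which favours such an outcome, so it is a description.

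**Figure D4:**
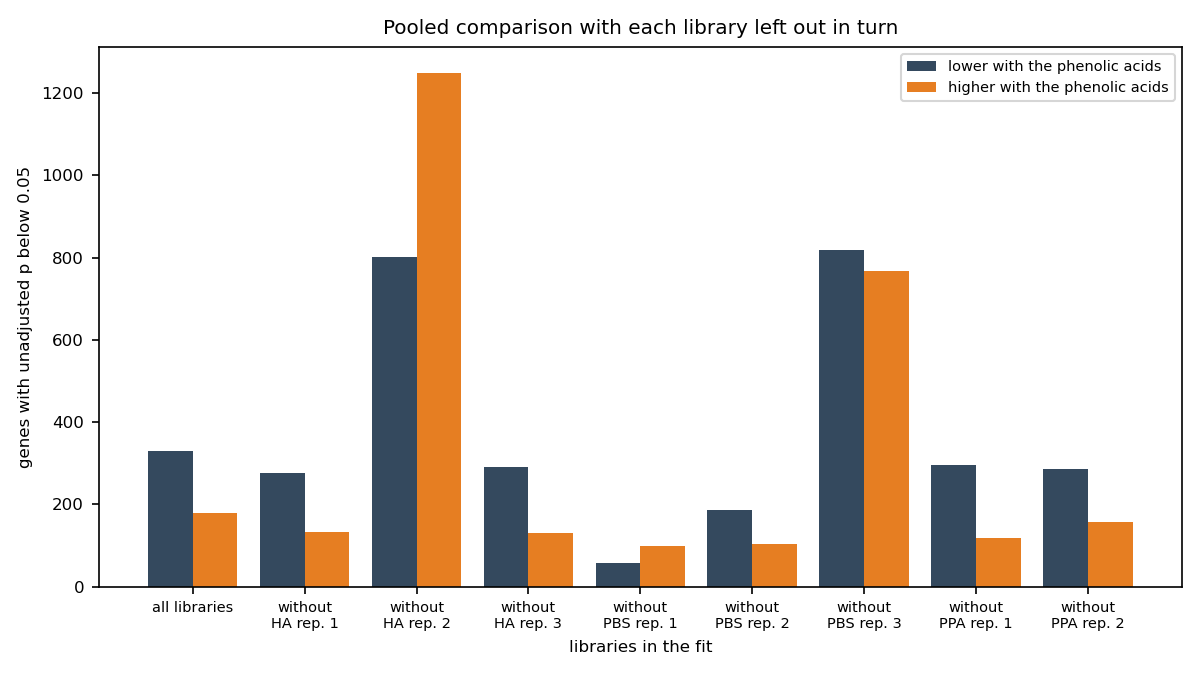
Number of genes with an unadjusted p below 0.05 in the pooled comparison (vertical axis), lower and higher with the phenolic acids, with all libraries and with each of the 8 libraries left out in turn (horizontal axis). Lower genes range from 57 without OVX-PBS replicate 1 to 818 without OVX-PBS replicate 3, and higher genes from 98 without OVX-PBS replicate 1 to 1250 without OVX-HA replicate 2.

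The direction of the differences also varied with transcript length. Genes were split into 5 groups of nearly equal number by summed exon length in the mm10 annotation, which was available for 97.7% of those tested. The median pooled difference was -0.06 in the shortest group (53 to 1479 bases) and 0.04 in the longest (6508 bases and more). At an unadjusted p below 0.05, 137 genes were lower and 36 higher in the shortest group, and 14 were lower and 32 higher in the longest. The median exon length was 2144 bases over the 12 leading lower genes and 6784 over the 12 higher, against 3463 over all genes. Relative to the mean of all 14 libraries, the shortest group stood highest in OVX-PBS replicate 1 (0.17) and replicate 2 (0.10) and at -0.02 in replicate 3, and between -0.06 and 0.08 with the phenolic acids. The part of this trend in the lower values of respiratory chain and ribosomal protein genes, which are short, was not tested.

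**Figure D5:**
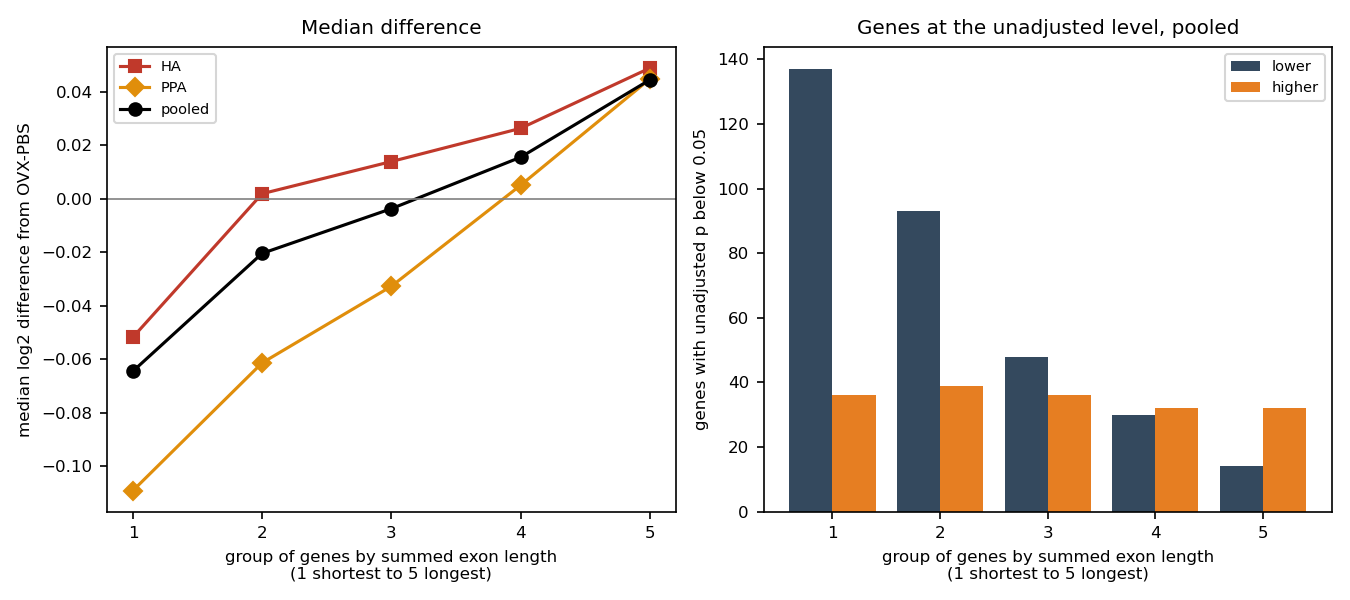
Left, median log2 difference from OVX-PBS for OVX-HA, OVX-PPA and both pooled in 5 groups of genes by summed exon length, from shortest (1) to longest (5); right, number of genes with an unadjusted p below 0.05 in the pooled comparison in each group. The pooled median goes from -0.06 to 0.04 and the number of lower genes from 137 to 14.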

How the data were processed

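Poly(A) RNA of mouse tibia went through a stranded mRNA kit, per the labels' protocols, and was read single-end, per the series design text. Per the submitters' processing notes the tools were STAR 2.7.8a, Partek, CASAVA 1.8.1 and Bowtie2 2.2.5 on mm10, in no stated order. The authors deposited a table of estimated counts per gene symbol, not normalized, of which 20.7% were not whole (tolerance 0.01). A log2 table the authors deposited as TMM-normalized holds the same counts as log2 of the count plus 1e-04 minus a constant per library, within 0.0055, and was not tested further. Whether counting used strand is not given in the sources used here.

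Estimated counts were rounded. Of 55291 symbols, 21761 passed the edgeR filter by group, and libraries were scaled by TMM. edgeR 4.0.16 in R 4.3.3 fitted the quasi-likelihood model to the 14 libraries of the series, taking OVX-HA and OVX-PPA as 1 group (10 residual degrees of freedom, biological coefficient of variation 24.1%) or apart (9 and 25%). Tests were two-sided with Benjamini-Hochberg adjustment over all genes and an FDR of 0.05. An SE is the log2 difference divided by the square root of F, and intervals are 95%. Alternatives used DESeq2 1.42.0, limma 3.58.1, other scaling and filters, a nervous system score as covariate and fits without single libraries. List means use log2 CPM with a prior count of 2. Coordinates, exon lengths and exon overlaps come from GENCODE M21, which held 97.7% of the symbols tested; promoters come from RefSeq (GRCm38.p6), which held 19 of the 24 leading genes.

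The genes named are the 12 per direction with the smallest unadjusted p among those that differed the same way with both compounds and had a mean of at least 2 CPM over the 8 libraries, leaving out predicted genes, clones, pseudogenes and receptor segments; 5 per direction between the compounds; up to 3 per list; and 12 bone, fat and receptor genes named always. A few genes that the rule names are not reported here, 1 of the 12 leading higher genes among them, and counts include them. Genes named beyond this rule were chosen after their values were seen. The members and the 40 lists were chosen with earlier results of these data known, and 6 further lists of ribosomal, mitochondrial and synaptic genes were added after their values were seen. No pair of libraries within a group was a duplicate by a chi-square statistic of counts (smallest chi-square per degree of freedom 12.1). Pairs from different groups were not checked. The fits were also run on simulated counts, drawn from a single mean profile apart from genes changed in the pooled group. These held no library that stood apart as OVX-PBS replicate 1 and OVX-HA replicate 2 do, so they do not address that dependence.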

Additional observations from a re-analysis of the deposited data

Results flagged for a closer look

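Dixon's test at the 95% level was applied to the 5 phenolic acid libraries for 132 gene levels and list means, and 5 stood out; chance alone gives about 1 in 20 (critical value 0.71). Groups of 3 or fewer libraries were not tested. The mean of the central nervous system genes was 2.02 in OVX-HA replicate 2 on the log2 CPM scale, against 6.37 to 6.79 in the other 4 libraries (ratio of gap to range 0.911). The mean of the synaptic genes was 3.52 there, against 4.96 to 5.40 (0.766). The mean of sex steroid receptors and their targets was 3.07 in the same library, against 3.70 to 3.73 (0.944). Csf1 read 48.9 CPM in OVX-PPA replicate 2 and 42.5 to 43.8 in the others (0.785), and the chaperone gene Hsp90aa1 read 323 CPM there and 355 to 368 in the others (0.724). No gene passed the test of a difference between the compounds.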

How the results depend on the processing

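At an FDR of 0.05 the pooled comparison, each compound against OVX-PBS and OVX-HA against OVX-PPA gave 0 genes under every alternative run. The comparison with sham gave 6 genes with DESeq2 and 0 to 1 without single libraries (Malat1, without sham replicate 2). At an unadjusted p below 0.05, limma voom with quality weights gave 3122 genes in the pooled comparison (1336 lower, 1786 higher), 4262 for OVX-HA, 1382 for OVX-PPA and 1372 between the compounds. Each of these totals is more than a fraction of 0.05 of the genes tested. The higher genes of the pooled comparison numbered 299 without a filter on low counts, 465 with the nervous system covariate and 314 without both libraries that lacked nervous tissue transcripts. In the same order, OVX-HA against OVX-PBS gave 490, 979 and 1350 genes and OVX-HA against OVX-PPA 499, 638 and 1171. With only the libraries of the groups compared these 2 gave 172 and 131, and the sham comparison gave 850 without the filter. Without both of those libraries, 2123 genes lay above and 1132 below OVX-PBS in all phenolic acid libraries, and 344 lay below without the filter. The cause of these shifts was not tested, apart from the smaller number of libraries or larger number of genes that the settings themselves bring.

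Leaving out single libraries gave 155 to 2051 genes pooled (57 to 818 lower, 98 to 1250 higher), 149 to 2791 for OVX-HA, 227 to 886 for OVX-PPA and 341 to 1087 between the compounds, and 221 to 1672 genes above and 257 to 1671 below OVX-PBS in all libraries. List medians ran from -0.188 to 0.0854 for tendon and periosteum, -0.202 to 0.0737 for marrow stroma, -0.169 to -0.0133 for heat shock, -0.142 to 0.00753 for the aryl hydrocarbon receptor pathway and -0.107 to 0.0526 for IGF. Single genes near 0 changed sign: Ctsk (-0.251 to 0.0312), Acp5 (-0.229 to 0.0469), Tnfsf11 (-0.158 to 0.255), Tnfrsf11b (-0.0481 to 0.298), Bglap2 (-0.423 to 0.0454), Col1a1 (-0.275 to 0.135), Hcar2 (-0.253 to 0.0261) and, between the compounds, Gbp10 (-1.9 to 0.0658). Tnfsf11 was at -0.0545 without both libraries lacking nervous tissue transcripts and -0.143 with limma voom, Tnfrsf11b at -0.0254 and Plin1 at 0.0717 without both libraries, and Col1a1 at 0.0143 with the covariate. None of the 24 leading genes, chosen for a small p in these same libraries, changed sign. Samples with the same replicate number shared only the number (correlation of deviations -0.554 to 0.425, over 0.1 in 2 of 7 pairs); with a replicate block the pooled comparison gave 506 genes at the unadjusted level and 0 at the FDR.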
